A study of Mus musculus with 2 samples.

Results

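The 5 genes of the miR-200 family (Mir200b, Mir200a, Mir429, Mir200c and Mir141) and 4 microRNA genes that lie alone and are known from epithelia (Mir31, Mir203, Mir205 and Mir375) were followed in the fetal mouse liver. The 9 genes were chosen by name from prior knowledge of epithelial microRNAs, with earlier results of these data known. Each was found in both count tables, out of 1973 annotated microRNA genes. The samples were whole livers of strain B6NCrl embryos at embryonic day 14.5, with no treatment and no altered allele named in the labels. There was 1 group with 2 libraries, labelled as biological replicates 1 and 2, and the sequenced RNAs were shorter than 30 nucleotides. Each sample is labelled as 1 liver, yet its sex is given as pooled and the donor ID is shared, so how far the 2 libraries are independent animals is uncertain. The livers were collected on different days, and the day cannot be told apart from the replicate. Reads on the strand of microRNA genes numbered 2353946 in replicate 1 and 3132763 in replicate 2, and a level is the count of a gene per 1000000 counts of this total (CPM). Means are given ± the SD of both libraries (n = 2).

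MicroRNAs are cut from hairpin transcripts, and bases 2 to 8 of the mature product, the seed, decide most of the messenger RNAs it binds. The miR-200 family is made from a pair of gene clusters and is best known for keeping cells epithelial, since it represses Zeb1 and Zeb2, transcription factors that silence E-cadherin and that in turn repress the miR-200 genes. The liver at this stage holds immature hepatic cells, the first bile duct cells and large numbers of blood-forming cells, and in a whole organ the number of cells of a type and the RNA per cell cannot be told apart.

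The family divides by 1 base of the seed, which is the reason its mature products are shown first. All sequences are RefSeq entries of build GRCm38.p6, written 5′ to 3′ with the seed in capitals, and each of the 9 genes had an entry. The 3p products of Mir200b, Mir200c and Mir429 share a seed.
miR-200b-3p: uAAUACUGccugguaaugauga
miR-200c-3p: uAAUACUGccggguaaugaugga
miR-429-3p: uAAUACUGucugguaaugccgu
The 3p products of Mir200a and Mir141 share the other seed.
miR-200a-3p: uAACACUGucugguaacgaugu
miR-141-3p: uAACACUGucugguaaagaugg
Positions are counted from 1 at the 5′ end, with the base of the product named first before the number. Between miR-200b-3p and miR-200a-3p the seed change is U4C, and outside the seed they differ by C9U, U17C and A22U. Within the first seed group, miR-200b-3p and miR-200c-3p differ by U11G and A22G over 22 compared bases, while miR-200b-3p and miR-429-3p differ by C9U, A19C, U20C and A22U. Within the second, miR-200a-3p and miR-141-3p differ by C17A and U22G. No other gene among the 1738 mature products of the RefSeq table carries either seed.

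The products shown here for the single loci each have a seed that is found once in that table.
miR-31-5p: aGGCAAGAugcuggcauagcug
miR-203-3p: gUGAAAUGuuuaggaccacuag
miR-205-5p: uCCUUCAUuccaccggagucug
miR-375-5p: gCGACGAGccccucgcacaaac
The product usually studied from Mir375 is miR-375-3p. The deposited counts are per hairpin and do not separate the arms, so every level below is that of the gene and not of 1 arm.

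The hairpins counted for the miR-200 family are printed because the counts belong to them, with the 3p product in capitals.
Mir200b: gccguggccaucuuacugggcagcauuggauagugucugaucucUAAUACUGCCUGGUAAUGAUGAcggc
Mir200a: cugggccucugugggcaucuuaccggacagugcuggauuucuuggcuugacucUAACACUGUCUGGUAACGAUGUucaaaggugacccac
Mir429: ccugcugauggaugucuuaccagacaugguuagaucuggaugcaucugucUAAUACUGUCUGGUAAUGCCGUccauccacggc
Mir200c: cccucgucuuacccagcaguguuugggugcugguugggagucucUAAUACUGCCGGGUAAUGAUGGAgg
Mir141: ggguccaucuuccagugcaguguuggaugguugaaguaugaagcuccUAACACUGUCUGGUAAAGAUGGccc
The tables list reads with several mapping places in a row of their own, apart from the genes, with 34.01% of all reads in replicate 1 and 33.07% in replicate 2. The longest stretch that a hairpin of the 9 genes shares with another one, out of 2200 hairpins compared, was 17 bases, between Mir200a and Mir141. For Mir200b and Mir200c it was 14 bases, and for the other genes it lay between 10 and 14. A full mature product of 22 or 23 bases is thus longer than any shared stretch. How many reads of each hairpin were set aside for mapping to several places was not tested.

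The cluster of Mir200b, Mir200a and Mir429 lies on the minus strand of chromosome 4 (build GRCm38, called mm10 in the labels, with genes from GENCODE M21) within 1846 bases. In the direction of transcription Mir200b comes first (156055681 to 156055750), followed by Mir200a (156054896 to 156054985) and Mir429 (156053905 to 156053987). All 3 lie in an intron of Ttll10, and Mir429 also overlaps an exon of the noncoding transcript Gm13648, in whose intron the other hairpins lie. The cluster of Mir200c and Mir141 spans 477 bases of the minus strand of chromosome 6, between Phb2 and Ptpn6. Mir200c (124718322 to 124718390) and Mir141 (124717914 to 124717985) both lie in an intron of the noncoding gene Gm15884.

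As a check of the tissue, Mir122, the defining microRNA of hepatocytes, was at 97348 CPM in replicate 1 and at 110371 CPM in replicate 2. It was 35.8-fold and 37.2-fold as high as the 5 miR-200 genes summed. The 2 libraries differ in many genes: 332 genes reached 10 counts in both, and 136 of these (41.0%) differed in a two-sided binomial test, computed exactly from the counts, at a Benjamini-Hochberg adjusted p under 0.05. That test sees counting error alone and compares these 2 libraries, not conditions. MicroRNAs of the Hox gene clusters took 1.47% of the counts in replicate 1 and 0.458% in replicate 2. Earlier results of these libraries had singled out this list for being higher in 1 of them.

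All 9 genes were detected in both livers. Together they took 0.476% of the counts in replicate 1 and 0.515% in replicate 2, with 11210 and 16144 counts or 4762 and 5153 CPM (mean 4958 ± 276.5 CPM). The miR-200 family made up 57.0% and 57.6% of these. Each gene passed the minimum of 10 counts per library, and 8 of the 9 had at least 100 counts in each, the exception being Mir205. From the highest gene, Mir429, to the lowest, Mir205, the mean levels covered a 67.9-fold range. By mean level the genes took ranks 79 to 244 among all 1973, of which 332 reached 10 counts in both libraries.

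**Figure D1:**
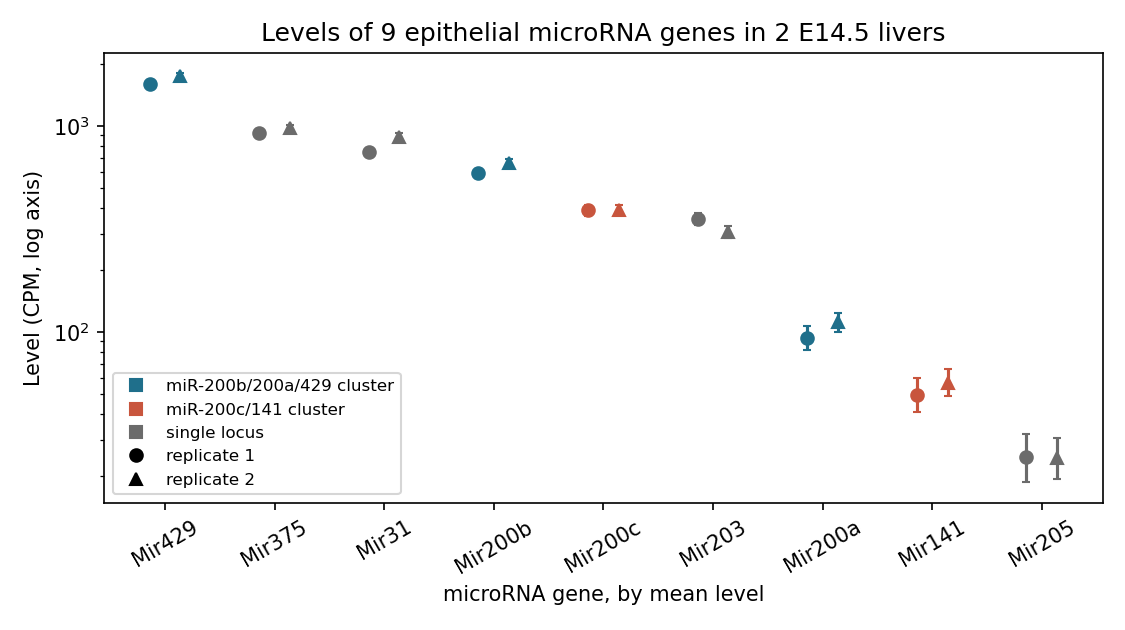
Level of each gene in CPM on a log axis, with replicate 1 as circles and replicate 2 as triangles, bars giving 95% Clopper-Pearson intervals that cover counting error only, and colours marking the cluster. Mir429 is highest at 1596 and 1747 CPM and Mir205 lowest at 24.6 CPM in both libraries.

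**Figure D2:**
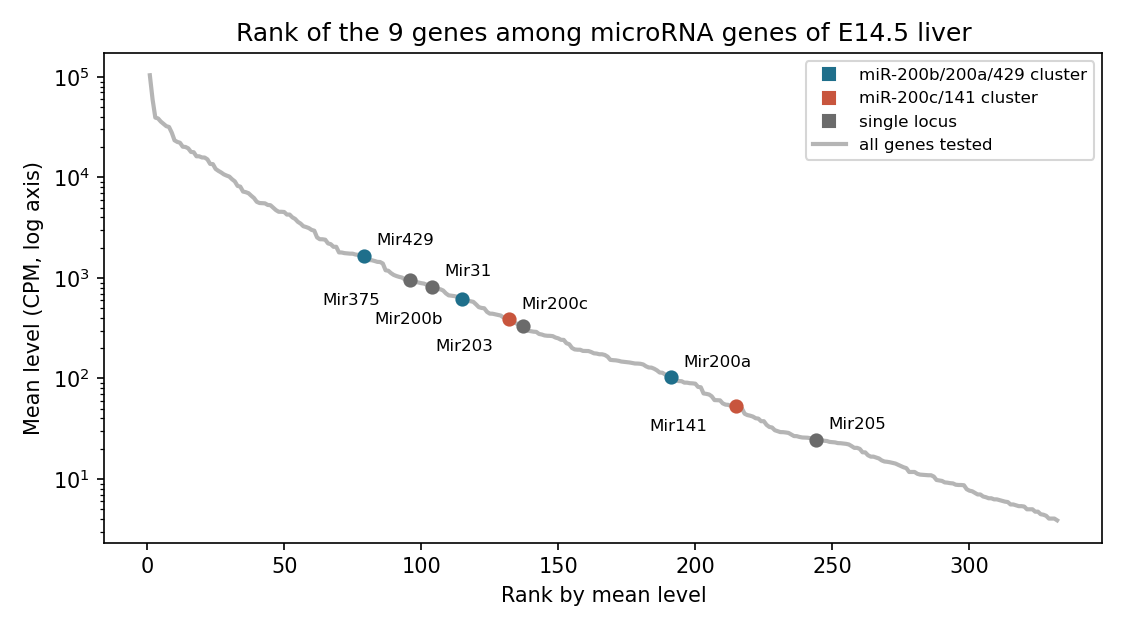
Mean level in CPM on a log axis against rank for the 332 genes that reached 10 counts in both libraries (grey line), with the 9 epithelial genes as points. The first 6 sit between ranks 79 and 137, and Mir200a, Mir141 and Mir205 lie lower, at ranks 191, 215 and 244.

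The order of the levels was the same in both libraries. It ran Mir429, Mir375, Mir31, Mir200b, Mir200c, Mir203, Mir200a, Mir141 and Mir205. Of the 8 pairs of neighbours in this order, 7 were farther apart than the larger of their differences between the libraries on the log2 scale. The exception was Mir375 and Mir31, whose gap of 0.22 was within the 0.25 by which Mir31 itself varied. The narrowest gap that passed lay between Mir200c and Mir203, with 0.25 against a range of 0.21. Because the mature products shown are of 22 or 23 bases, levels were not divided by length. The lengths of the counted reads themselves were not examined. How efficiently each sequence enters a library was not measured.

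The chromosome 4 cluster (Mir200b, Mir200a and Mir429) was the larger source of the family. It gave 2277 CPM in replicate 1 and 2519 CPM in replicate 2 (mean 2398 ± 171.0 CPM). The chromosome 6 cluster (Mir200c and Mir141) gave 438.8 and 447.8 CPM (mean 443.3 ± 6.37 CPM). The first cluster was thus 5.19-fold the second in replicate 1 (95% interval 4.85 to 5.55) and 5.62-fold in replicate 2 (5.31 to 5.96), and the values of the clusters did not overlap. It held 83.8% and 84.9% of the family's counts. The ratio of the clusters did not pass a two-sided Fisher's exact test between the libraries (p = 0.0727, adjusted p = 0.327 over 9 such ratios), and the ratio in replicate 2 was 1.08 times that in replicate 1.

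Within the chromosome 4 cluster the hairpins were counted very unequally. Mir429, the last hairpin of the cluster, was counted 3756 times in replicate 1 and 5473 times in replicate 2, which is 1596 and 1747 CPM (mean 1671 ± 107.1 CPM). Mir200b, the first hairpin, had 587.9 and 660.4 CPM from 1384 and 2069 counts (mean 624.2 ± 51.3 CPM). Mir200a, which lies between them, had 93.5 and 111.4 CPM from 220 and 349 counts (mean 102.4 ± 12.7 CPM). The 3 genes kept this order in both libraries, with no overlap. Mir429 took 70.1% of the cluster in replicate 1 and 69.4% in replicate 2, with Clopper-Pearson 95% intervals of 68.8% to 71.3% and of 68.3% to 70.4%. Mir200b took 25.8% and 26.2%, and Mir200a took 4.10% and 4.42%. Mir429 was therefore 17.1-fold Mir200a in replicate 1 (14.9 to 19.6) and 15.7-fold in replicate 2 (14.1 to 17.5), although both hairpins lie on the same strand 908 bases apart.

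In the chromosome 6 cluster Mir200c was the main gene. Its 916 and 1225 counts correspond to 389.1 CPM in replicate 1 and 391.03 CPM in replicate 2 (mean 390.1 ± 1.34 CPM). Mir141 had 49.7 and 56.8 CPM from 117 and 178 counts (mean 53.3 ± 5.03 CPM). Mir200c thus made up 88.7% of the cluster in replicate 1 (86.6 to 90.5) and 87.3% in replicate 2 (85.5 to 89.01). As to the share of a hairpin within its cluster, none of the 5 differed between the livers by Fisher's exact test with Benjamini-Hochberg adjustment (adjusted p = 0.483 for 4 genes and 0.614 for Mir200b, with the Mir200c and Mir141 tests being the same). Without adjustment none had a p under 0.05 either, the lowest being 0.315.

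**Figure D3:**
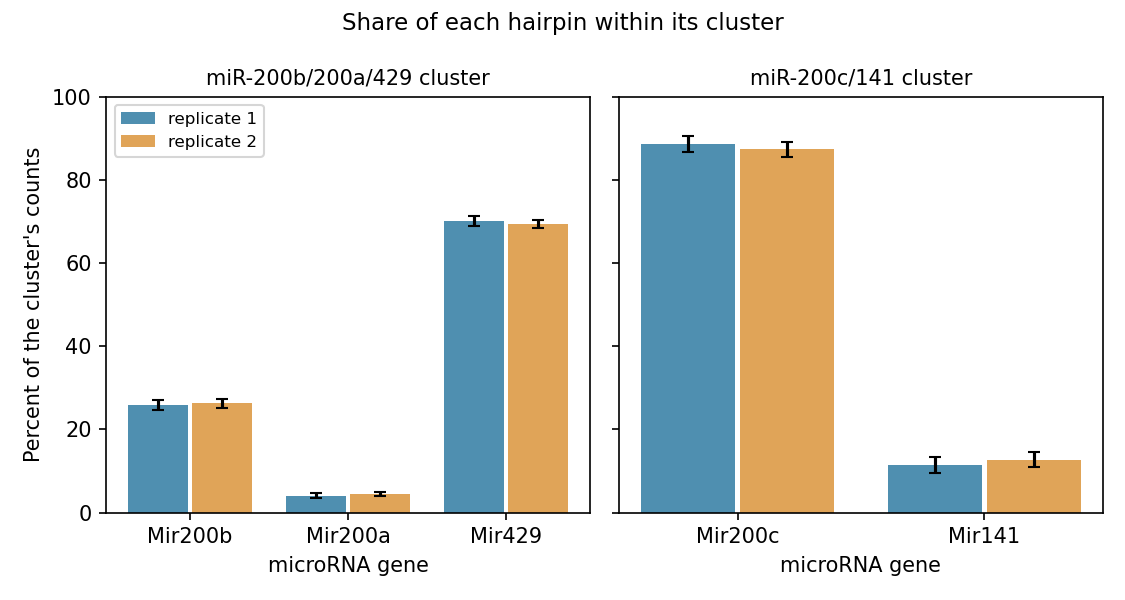
Percent of a cluster's counts taken by each hairpin in replicate 1 (blue) and replicate 2 (orange), with 95% Clopper-Pearson intervals that cover counting error only. In each library Mir429 takes 69.4% to 70.1% of its cluster and Mir200c 87.3% to 88.7% of its own, while Mir200a and Mir141, which share a seed, are the smallest part of each.

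Grouped by seed instead of position, the counts were more uneven still. The genes with seed AAUACUG (Mir200b, Mir200c and Mir429) gave 2573 CPM in replicate 1 and 2798 CPM in replicate 2. Those with seed AACACUG (Mir200a and Mir141) gave 143.2 and 168.2 CPM. The first group was 17.97-fold the second in replicate 1 (95% interval 16.1 to 20.1) and 16.6-fold in replicate 2 (15.2 to 18.2), a difference between the livers that did not pass Fisher's exact test (p = 0.286, adjusted p = 0.566). In each cluster the member with seed AACACUG was the lowest: Mir200b was 6.29-fold and 5.93-fold Mir200a, and Mir200c was 7.83-fold and 6.88-fold Mir141. Mir200a and Mir141 are also the pair with the longest shared stretch, 17 bases, whose part in their low counts was not tested. Across the clusters Mir200a was 1.88-fold and 1.96-fold Mir141, and Mir200b was 1.51-fold and 1.69-fold Mir200c. That last ratio had p = 0.0472 by Fisher's exact test between the livers and an adjusted p of 0.327.

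Among the genes that lie alone, Mir375 and Mir31 were high and Mir205 was low. Mir375, known from the hormone-producing cells of the pancreas and from gut epithelium, lies on chromosome 1 (74900658 to 74900721, minus strand) outside any other annotated gene, 1349 bases from Cfap65 and 7514 bases from Cryba2. Its level was 923.1 CPM in replicate 1 and 973.3 CPM in replicate 2 (mean 948.2 ± 35.4 CPM). The 6 measured genes of the pancreas list, which does not hold Mir375, were lower in the same libraries. The highest of them was Mir7-1 with 238.7 and 209.4 CPM, ahead of Mir7-2 (19.97 and 13.4 CPM) and Mir7b (21.2 and 8.62 CPM). These levels leave out reads that mapped to several places, and how many such reads these genes had was not tested. Mir217 had 13.6 and 9.90 CPM, Mir216b 4.67 and 4.79 CPM, and Mir216a 3 and 6 counts. Mir31, a microRNA of skin and other stratified epithelia, lies on chromosome 4 (88910557 to 88910662, minus strand) in an exon of the noncoding gene AL805899.1. Its level was 745.1 CPM in replicate 1 and 883.9 CPM in replicate 2 (mean 814.5 ± 98.1 CPM).

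Mir203 and Mir205 are both typical of the epidermis, where miR-203 acts as cells leave the basal layer and miR-205 marks the basal layer. Mir203, on the plus strand of chromosome 12 (112130880 to 112130955) between Aspg and Kif26a, reached 353.4 CPM in replicate 1 and 304.8 CPM in replicate 2 (mean 329.1 ± 34.4 CPM). Mir205, on the minus strand of chromosome 1 (193507463 to 193507530) in an exon of the noncoding gene 4631405K08Rik, had 24.6 CPM in each library from 58 and 77 counts (mean 24.6 ± 0.0428 CPM). The level of Mir205 was known less precisely from its counts, with 95% Clopper-Pearson intervals of 18.7 to 31.9 CPM and 19.4 to 30.7 CPM. These still lie far above the 1.27 and 0.958 CPM that a count of 0 would allow. Together the single loci gave 2046 and 2187 CPM, and the miR-200 family was 1.33-fold and 1.36-fold that sum.

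Between the livers, the 9 genes differed by small amounts. By the exact binomial test with Benjamini-Hochberg adjustment over all 332 genes, 4 of the 9 passed. Replicate 2 had the higher level for 3 of them and replicate 1 for 1, where the background was 41.0% of genes in either direction, 23.2% higher in replicate 2 and 17.8% higher in replicate 1. With 9 genes this share is near the background. Mir31 was 1.19-fold higher in replicate 2 (95% interval 1.12 to 1.26, adjusted p = 1.2e-07 by the exact binomial test). Mir429 was 1.09-fold higher (1.05 to 1.14, adjusted p = 8.2e-05 by the exact binomial test), and Mir200b was 1.12-fold higher (1.05 to 1.203, adjusted p = 0.00276 by the same exact test). Mir203 was the 1 gene that went the other way, 1.16-fold higher in replicate 1 (1.06 to 1.27, adjusted p = 0.00615 by the exact test).

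The other 5 did not pass. The ratio of replicate 2 over replicate 1 was 1.19 for Mir200a (95% interval 1.00 to 1.42), 1.14 for Mir141 (0.900 to 1.46), 1.05 for Mir375 (0.998 to 1.11), 1.00 for Mir200c (0.922 to 1.10) and 0.998 for Mir205 (0.7004 to 1.43). For Mir205 and Mir141 the intervals are wide because the counts are few. A difference of the size seen in Mir31 was not detectable in them at this depth. Mir200a had a ratio as large as that of Mir31 from only 220 and 349 counts. Its p was 0.0447 before adjustment and 0.0934 after, by the exact binomial test. The median log2 ratio over the 9 genes was 0.13, beside 0.03 over all 332. The median absolute log2 ratio was 0.17, beside 0.16 over all.

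No difference among the 9 genes passed once a spread between the livers was allowed for. edgeR's exact test with 1 common dispersion estimated from both libraries as replicates, a coefficient of variation of 24.95%, called 8 of the 332 genes (2.41%) and 0 of the 9. None of the 9 had an unadjusted p under 0.05. That dispersion takes in the very differences tested. Estimated without the genes over 2-fold apart, which lowers it by construction and was tried only with the data in view, the coefficient of variation was 9.87%, and edgeR's exact test called 19 genes (5.72%) and again 0 of the 9, with 0 at an unadjusted p under 0.05. Of the 332 genes, 117 had a larger absolute log2 ratio than Mir31 and 110 a larger one than Mir200a, the farthest apart of the 9.

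**Figure D4:**
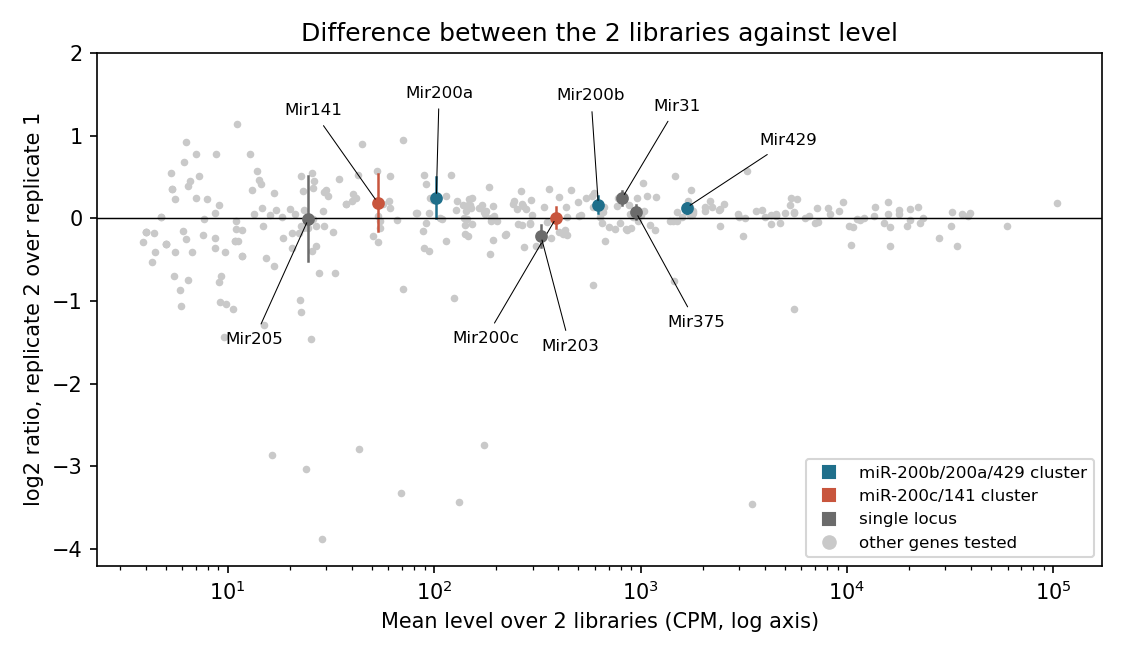
Log2 ratio of replicate 2 over replicate 1 against mean level in CPM (log axis) for the 332 genes tested, with the 9 epithelial genes in colour and vertical lines giving their 95% exact intervals for counting error only. The largest absolute log2 ratio among the 9 is 0.25, and 110 of the 332 genes lie farther from 0 than that.

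Other microRNAs known from epithelia were read from lists named for a cell type or tissue, which do not show the cells that a count came from. By library totals, 77 of all 332 genes (23.2%) were called higher in replicate 2 and 59 (17.8%) in replicate 1. Those numbers were 59 and 69 by TMM, and 58 and 69 by DESeq2 size factors. The counts of these small lists are a description beside the background of the same scaling. Of the 5 detected members of the hepatocyte and gut epithelium list, those with at least 10 counts in both libraries, 3 were higher in replicate 2 and 0 in replicate 1. Its median log2 ratio was 0.14, with Mir122 and Mir192 (4467 and 4642 CPM) its highest members. Mir192 did not pass with TMM or DESeq2 size factors (adjusted p = 0.318 and 0.393 by the exact binomial test), which left 2 of 5. In the bile duct development list 2 of 4 were higher in replicate 2 and 0 in replicate 1, with a median of 0.13. These 2 were its highest members, Mir30a (12992 and 14263 CPM), known from the developing bile ducts, and Mir23b (7731 and 8465 CPM). Which cells of the liver they came from was not tested. With both size factors Mir27b, at a log2 ratio of -0.09 by totals, passed as higher in replicate 1 (adjusted p = 0.0062 by TMM and 0.00471 by DESeq2 factors in the exact binomial test). In the ciliated epithelium list 1 of 3 detected members was higher in replicate 2 and 0 in replicate 1, and the median was 0.23. Mir449a (225.2 and 259.8 CPM), which acts in cells with many cilia, was that member, ahead of Mir34c (91.3 and 106.9 CPM). It did not pass with TMM or DESeq2 size factors (adjusted p = 0.0757 and 0.0843 by the exact binomial test), which left 0 of 3. The miR-183 cluster, known from sensory epithelia and also from red cell precursors, had 1 of 3 members higher in replicate 1 and a median of -0.07. That member was Mir182 (306.7 and 240.7 CPM), while Mir183 had 156.8 and 149.7 CPM.

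Markers of other cell types were read the same way, beside the same background of 23.2% and 17.8% by library totals. Their part in the small differences of the epithelial genes was not tested. The erythroid list, Mir451a (38020 and 30243 CPM) and Mir144 (11594 and 9272 CPM), took 4.96% of the counts in replicate 1 and 3.95% in replicate 2, and both genes were higher in replicate 1. Mir126a of blood vessels (61517 and 57654 CPM) and Mir223 of granulocytes and monocytes (10498 and 9885 CPM) were also higher in replicate 1. In the mesenchymal list 1 of 6 detected members was higher in replicate 2 and 2 in replicate 1, with a median of 0.01 by totals, -0.02 by TMM and -0.03 by DESeq2 size factors. Its highest members were Mir21a (30177 and 25583 CPM) and Mir143 (16834 and 15638 CPM), both higher in replicate 1. The member higher in replicate 2 was Mir214 (873.0 and 1176 CPM, log2 ratio 0.43, adjusted p = 9.8e-27 by the exact binomial test). In the pancreas list 1 of 5 detected members, Mir7b, was higher in replicate 1 and 0 in replicate 2, and the median was -0.46. That median is the value of Mir217, from 32 and 31 counts, which did not pass (adjusted p = 0.397 by the exact binomial test). The highest members of the list, Mir7-1 and Mir7-2, had adjusted p = 0.0568 and 0.152 by the exact binomial test. Mir7-1 passed as higher in replicate 1 with TMM and DESeq2 size factors (adjusted p = 0.0243 and 0.0221 by the exact binomial test). All 5 detected members of the Hox list were higher in replicate 1, led by Mir10a (7584 and 3549 CPM) and Mir10b (6365 and 582.9 CPM). That list was taken up because earlier results had it higher in 1 of these libraries, so its count is no independent result.

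The genes whose levels in the 2 libraries lay closest to those of the epithelial genes were found by the distance of log2(CPM + 1) over both libraries. They describe level alone, and reads set aside for mapping to several places are not part of these levels. Nearest to Mir429 were Mir361 at a distance of 0.04 and Mir134 at 0.06, and nearest to Mir200c were Mir32 at 0.13 and Mir671 at 0.19. Mir31 lay closest to Mir370 (0.10) and Mir467e (0.12), and Mir203 to Mir5099 (0.15) and Mir222 (0.18). Mir205 lay closest to Mir3102 (0.02) and Mir302a (0.06), and Mir375 to Mir125a (0.02) and Mirlet7f-2 (0.08).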

How the data were processed

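The authors deposited 1 table per library with whole-number counts for each microRNA gene, without normalization. Per the text notes deposited with the files, the assembly is mm10, the annotation is M4 and each table derives from its own alignment. Aligner, counter and versions: not given in the sources used here. Same-strand counts were used, and rows that name no gene (unmapped reads, 18.6% and 17.7% of reads, reads mapped to more than 1 place, 34.01% and 33.07%, and reads in no gene, 10.6% and 10.4%) stayed out of totals. Gene IDs were matched to GENCODE M21 without version (1894 of 1973). Differences between the libraries were tested by a two-sided exact binomial test (SciPy 1.17.1, smaller tail doubled) given the totals, on genes that reached 10 counts in both, with Benjamini-Hochberg adjustment. Log2 ratios add 0.5 counts. edgeR 4.0.16's exact test and TMM and DESeq2 1.42.0 size factors served as alternatives; edgeR's quasi-likelihood test could not be fitted with 1 library per liver. P-values of the binomial and Fisher's exact tests, like the intervals, cover counting error only; edgeR's add the spread between these 2 samples. The members and lists were chosen with earlier results of these data known. Named genes were the 9 members, the 2 highest of each list and the 2 nearest in level to Mir429, Mir200c and each single locus. Mir216a, Mir216b, Mir217, Mir7b, Mir27b and Mir214 were added after their values were seen. List genes with no row under their symbol were not analysed here. Counts of the 332 genes were also simulated with counting error alone and no spread between livers. Of these, the 319 that reached 10 simulated counts in both libraries were tested. On these the exact binomial test called 69.4% of the 1.25-fold changes, 75% of the 1.5-fold changes and 1.53% of unchanged genes. This setting cannot show how often the test calls genes where livers vary beyond counting error.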

Additional observations from a re-analysis of the deposited data

Results flagged for a closer look

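Opposite-strand reads were not part of the comparisons, and at 8 of the 9 genes they numbered at most 2 per library. At Mir203 there were 19 in replicate 1 and 17 in replicate 2, which is 2.23% and 1.75% of the reads at that locus and above the 3 counts that a count of 0 allows. The RefSeq table lists miR-203b-3p (chromosome 12, 112130887 to 112130908) and miR-203b-5p (112130927 to 112130946) on the minus strand of the same place.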

How the results depend on the processing

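The number of the 9 genes that differed between the livers was 4, and 4 to 5 under 7 alternatives of minimum count, scaling, strand and totals. It was 0 by edgeR's exact test with either dispersion, which called 8 and 19 of all genes against 136, since these tests add the spread between the livers to counting error. The fifth gene was Mir375, with totals that leave out Mir122 (log2 ratio 0.10, adjusted p = 0.0397 by the exact binomial test). Genes called higher in replicate 2 and in replicate 1 numbered 77 and 59 by library totals, 59 and 69 by TMM and 58 and 69 by DESeq2 size factors, while those of the 9 epithelial genes numbered 3 and 1 under each. The ratio of Mir200c changed sign by TMM (-0.02, or -0.024 in edgeR's exact test with either dispersion), DESeq2 size factors (-0.027) and counts regardless of strand (-0.0035), and that of Mir205 without Mir122 (0.0144). The summed level of the 9 genes, 4958 CPM, was 4472 with counts regardless of strand and 5534 without Mir122 in the totals, and that of the single loci, 2116 CPM, was 1912 and 2362, since these choices change the totals. Without 1 replicate the sum ran from 4762 to 5153 CPM, the single loci from 2046 to 2187 CPM, the ratio of the clusters from 5.19 to 5.62, that of the seed groups from 16.6 to 17.97 and the share of Mir429 from 69.4% to 70.1%. The alternatives that leave out a library give no test between the libraries. No paired analysis was possible because there is 1 group.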
